A study of Mus musculus with 31 samples.

Results

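*H19* and 9 other genes known to be imprinted in the mouse, namely *Igf2*, *Cdkn1c*, *Grb10*, *Peg3*, *Peg10*, *Mest*, *Plagl1*, *Impact* and *Snrpn*, were followed through mouse embryonic stem cells (mESCs) that lacked Ago2, the Trim71-binding site of the *Ago2* mRNA, or both. The 10 genes were chosen by name, with earlier results of these data known, and 9 of them are among the 15034 genes of the RNA-seq table. *Snrpn* is not analysed here. Of the 9, 8 reached a mean of 1 TPM, a level scaled to the library total and to transcript length, over the 12 RNA-seq libraries and were tested together with all 11287 genes that did so. *Igf2*, at a mean of 0.758 TPM, did not, and its values are given as a description.

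The study asked how Trim71 (Lin-41), an RNA-binding protein that represses target mRNAs, acts through *Ago2* in the control of let-7 microRNA activity and of stem cell fate. All cells were ES-E14TG2a mESCs carrying a bi-allelic FLAG tag on Trim71, grown in 2i + Lif, and the cells with no further edit are called WT. CLIPΔ cells had lost, on both alleles, the stretch of the *Ago2* 3′UTR to which Trim71 binds. Ago2 KO cells were made with a pair of Cas9 guides against the *Ago2* coding region and grown from single sorted cells, and Ago2 KO/CLIPΔ cells carried both edits. The RNA-seq held 2 libraries each of WT and CLIPΔ and 4 each of the genotypes without Ago2. Small-RNA-seq held 4 libraries of each genotype. The labels do not say which library came from which clone, or whether libraries of a genotype came from separate cultures, so the p-values measure only the spread between these libraries.

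Imprinted genes are expressed mainly from the copy inherited from one parent, because DNA methylation set in the egg or the sperm is kept at control regions after fertilisation. Many of them act on growth of the embryo and placenta, and methylation at their control regions can be lost or gained in cultured mESCs. Expression from both copies, from one copy, or from neither gives a different RNA level, but the TPM values here do not separate the copies. A lower level in these bulk libraries cannot be told apart from a smaller number of cells that express the gene.

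3 members hold microRNA genes, and those of *H19* and *Mest* are shown here. *H19* is a long noncoding RNA on chromosome 7 (mm10 chr7:142575529-142578143, minus strand, 5 exons), and miR-675 lies in an exon of its longest annotated transcript. *Mest* lies on chromosome 6 (mm10 chr6:30723547-30748465, plus strand), and miR-335 lies in one of its introns and in an exon of 0 of its 11 annotated transcripts. The mature sequences are shown because the miR-335 strands are set beside *Mest* further on, and because miR-675 is made from the exon of the RNA that changed most. They are from RefSeq (GRCm38.p6), with the seed, bases 2 to 8, in capitals. No seed is shared among them.
miR-335-5p: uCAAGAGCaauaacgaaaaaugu
miR-335-3p: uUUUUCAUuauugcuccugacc
miR-675-5p: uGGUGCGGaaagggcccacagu
miR-675-3p: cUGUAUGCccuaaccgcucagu

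The *Ago2* level matched the labels for the loss of Ago2. It was similar with and without the 3′UTR deletion, so it cannot check the CLIPΔ label. *Ago2* was at 24.9 ± 4.69 TPM in WT (mean ± SD, n = 2) and at 1.95 ± 0.261 TPM in Ago2 KO (n = 4), which is 7.83% of WT. In CLIPΔ it was at 23.8 ± 4.98 TPM (n = 2) and in Ago2 KO/CLIPΔ at 2.18 ± 0.660 TPM (n = 4). The 6 of 7 listed pluripotency genes that are in the table, among them *Pou5f1* and *Nanog*, summed to 5005 to 6084 TPM in the 12 libraries, and 3 fibroblast (feeder) genes of 7 listed summed to 1.32 to 3.73 TPM. The libraries of the Ago2 KO and Ago2 KO/CLIPΔ genotypes fell into replicates 1 and 2 on one side and replicates 3 and 4 on the other. The correlation between libraries of 1 genotype was 0.997 to 0.999 on the same side and 0.990 to 0.995 across the sides, over all tested genes. The labels give no reason for this split.

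*H19* had the largest change of the members, at its lowest when both edits were present. Its level was 91.0 and 59.2 TPM in the WT libraries and 62.3 and 48.3 TPM in the CLIPΔ libraries. In Ago2 KO it was 34.7, 33.0, 43.3 and 39.3 TPM in replicates 1 to 4. The Ago2 KO/CLIPΔ libraries held 7.57, 7.56, 7.50 and 7.72 TPM. The WT and CLIPΔ libraries overlapped, every Ago2 KO library lay below both of them, and every Ago2 KO/CLIPΔ library lay far below every other library, within a very narrow band. From the highest mean to the lowest, the order ran from WT (75.1 ± 22.4 TPM) through CLIPΔ (55.3 ± 9.94 TPM) and Ago2 KO (37.6 ± 4.67 TPM) down to Ago2 KO/CLIPΔ (7.59 ± 0.0932 TPM). CLIPΔ was below WT in both same-numbered pairs, though the ranges overlapped.

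**Figure D1:**
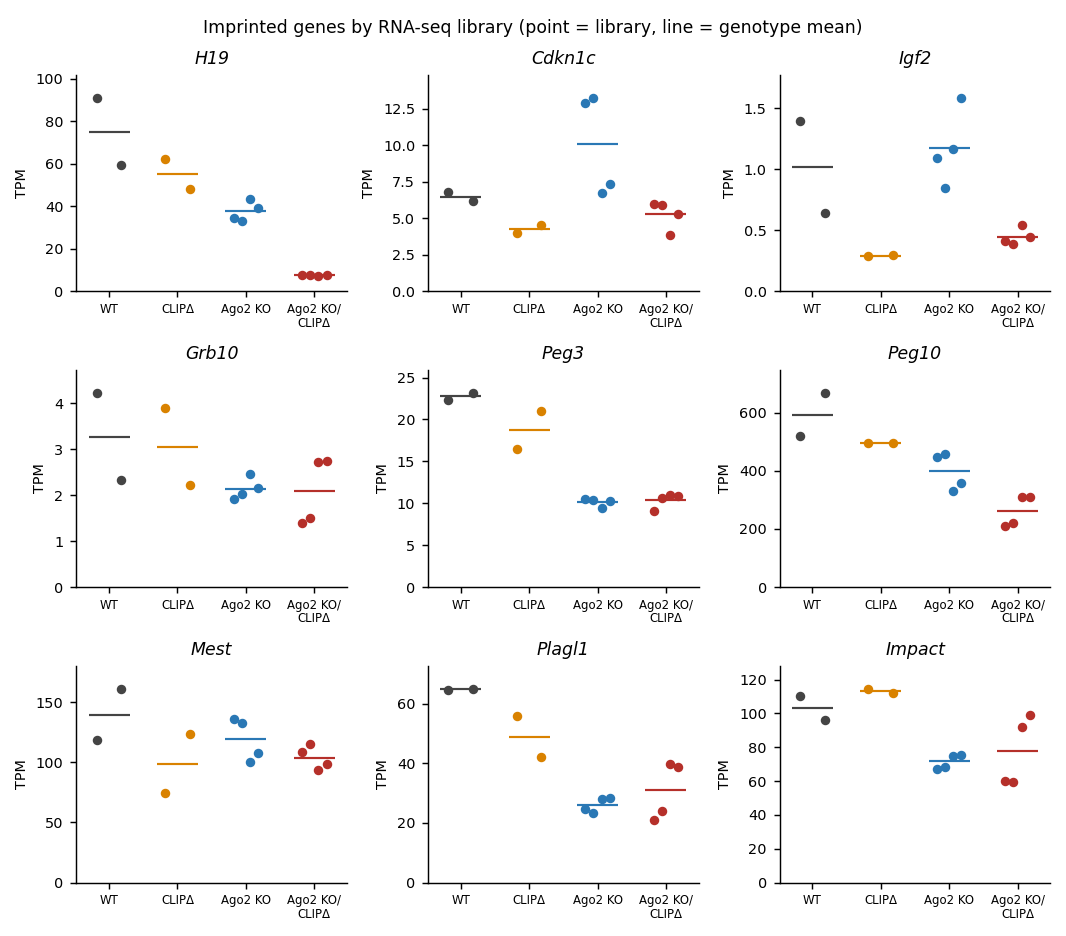
Level in TPM (y axis, linear, from 0) of the 9 members in the 12 RNA-seq libraries by genotype, with a point for each library and a line at the genotype mean. *H19* lies at 7.50 to 7.72 TPM in all 4 Ago2 KO/CLIPΔ libraries and at 33.0 TPM or above in all others.

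Log2 fold changes below are differences of log2(TPM + 1), which understate changes of genes near 1 TPM, and were tested with limma over all tested genes with Benjamini–Hochberg adjustment. *H19* changed in Ago2 KO/CLIPΔ against Ago2 KO by −2.16 ± 0.13 (log2 fold change ± SE, limma adjusted p = 2.77e-05), to 20.2% of the Ago2 KO level. This was the largest log2 fold change, in either direction, of the 11287 genes tested in this comparison. In the whole comparison 99 genes, 0.877%, passed the adjusted threshold of 0.05, 0.602% of all tested genes being lower, and *H19* was the 1 member of 8 that passed. The libraries did not overlap in 3 of the 8 members (*H19*, *Cdkn1c* and *Peg10*) and in 13.4% of all tested genes. An exact permutation test of the 4 libraries against 4 gave p = 0.0286, two-sided, the smallest p that 4 against 4 allow. It takes the 4 libraries of a genotype as exchangeable, although they fell into 2 sides. With the 2 sides of each genotype as units, the smallest p a permutation test could give is 0.333.

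The fall was of a similar size on both sides of the library split. It was −2.02 between replicates 1 and 2 of the genotypes (7.57 against 33.8 TPM) and −2.30 between replicates 3 and 4 (7.61 against 41.3 TPM). Fitted on either side alone, the limma adjusted p for *H19* was 0.0861 and 0.0662. In those fits, of 2 libraries against 2, no gene passed the adjusted threshold, while 1436 and 1362 genes had an unadjusted p under 0.05. The *H19* change stayed between −2.22 and −2.09 whichever of the 8 libraries was left out.

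Against CLIPΔ, the same deletion in cells with Ago2, *H19* was lower in Ago2 KO/CLIPΔ by −2.70 ± 0.16 (limma adjusted p = 3.67e-06), at 13.7% of the CLIPΔ level. Against WT, it fell in Ago2 KO to 50.0% (−0.96 ± 0.16, limma adjusted p = 0.000662). CLIPΔ against WT gave −0.41 ± 0.19 (limma adjusted p = 0.390, or 0.249 with the replicate number as a block). The interaction term, the Ago2 KO/CLIPΔ against Ago2 KO difference minus the CLIPΔ against WT difference, was −1.75 ± 0.23 (limma adjusted p = 0.0053). It passed in 73 genes (0.647%, and 0.549% with a negative term), and *H19* was the only member among them, the others having limma adjusted p from 0.727 to 0.996. These comparisons share libraries, so they are not independent of each other.

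*H19* RNA is abundant in trophoblast, endoderm and mesoderm, so markers of these lineages are given beside it. The 6 trophoblast markers summed to 168 to 237 TPM in Ago2 KO and to 114 to 158 TPM in Ago2 KO/CLIPΔ. Over the 12 libraries *Krt8* (57.1 to 122 TPM), *Krt18* (29.6 to 100 TPM) and *Cdx2* (3.79 to 14.9 TPM) made up most of this sum, *Gata3* and *Hand1* were at 0.283 to 2.51 TPM, and *Elf5* was at 0.0640 TPM or below. The 5 endoderm markers summed to 172 to 194 and 184 to 201 TPM, and the 3 mesoderm markers to 40.3 to 69.8 and 44.0 to 60.2 TPM. Nearly all of the endoderm sum was *Sparc*, at 112 to 198 TPM over the 12 libraries. The other endoderm markers, *Gata4*, *Gata6*, *Sox17* and *Foxa2*, were each at 3.02 TPM or below. The trophoblast sums did not overlap between these genotypes and the other sums did. Between WT and Ago2 KO, the trophoblast sum went from 118 to 159 up to 168 to 237 TPM and the endoderm sum from 119 to 128 up to 172 to 194 TPM. The sum of the 2 neural markers in the table, nearly all of it *Nes*, went from 66.1 to 73.9 down to 26.4 to 29.6 TPM, and the mesoderm sums overlapped. The part of these lineages in the changes of *H19* or of the other members was not tested.

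*Igf2*, a growth factor gene that shares its enhancers and control region with *H19*, lies next to it (mm10 chr7:142650766-142666816, minus strand) and was low in every library. It was at 1.40 and 0.644 TPM in WT and at 0.288 and 0.301 TPM in CLIPΔ. In Ago2 KO it was at 1.09, 0.843, 1.17 and 1.58 TPM and in Ago2 KO/CLIPΔ at 0.411, 0.385, 0.545 and 0.444 TPM. Each genotype with the 3′UTR deletion lay below its partner without it, at 28.8% of WT and 38.1% of Ago2 KO, with no overlap of the libraries. Without counts the depth behind values under 1 TPM is unknown, and *Igf2* was tested only in the fit without the filter. There CLIPΔ against WT gave −0.62 (limma adjusted p = 0.0867) and Ago2 KO/CLIPΔ against Ago2 KO −0.58 (0.0615). None of its comparisons passed.

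Other genes near *H19* were described after its values were seen. The tested genes within 500 kb of it number 6, and in Ago2 KO/CLIPΔ against Ago2 KO their log2 fold changes ran from −0.28 (*Ascl2*) to 0.27 (*Ctsd*). None of the 6 passed the limma test, and 0 had an unadjusted p under 0.05. *Mrpl23*, the tested gene closest to *H19*, stood at 0.15 (limma adjusted p = 0.779).

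*Cdkn1c* encodes the cyclin-dependent kinase inhibitor p57 and is expressed from the maternal copy, in a second cluster on chromosome 7 (mm10 chr7:143458339-143461050, minus strand). It was at 6.77 and 6.17 TPM in WT and at 3.97 and 4.53 TPM in CLIPΔ. In Ago2 KO it was at 12.9, 13.2, 6.75 and 7.35 TPM and in Ago2 KO/CLIPΔ at 5.95, 5.93, 3.89 and 5.32 TPM. Replicates 1 and 2 of Ago2 KO were the high libraries, and replicates 3 and 4 were near WT.

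For *Cdkn1c* the Ago2 KO/CLIPΔ against Ago2 KO difference was −0.78 ± 0.20 (limma adjusted p = 0.122), and it was −1.02 in replicates 1 and 2 and −0.53 in replicates 3 and 4. With the replicate number as a block the limma adjusted p was 0.0158. Ago2 KO against WT gave 0.51 ± 0.25 (limma adjusted p = 0.0962), which with the block became 0.79 (limma adjusted p = 0.00253). Ago2 KO/CLIPΔ against CLIPΔ gave 0.24 (limma adjusted p = 0.421), with the block 0.53 (limma adjusted p = 0.0184). In these comparisons across Ago2 the block takes libraries of the same number as matched, which the labels do not give. WT and CLIPΔ have no replicates 3 and 4.

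*Grb10*, an adaptor protein gene that restrains insulin and growth factor signalling (mm10 chr11:11930508-12038683, minus strand), was low in every genotype. It was at 4.22 and 2.33 TPM in WT, 3.88 and 2.22 TPM in CLIPΔ, 1.93 to 2.46 TPM in Ago2 KO and 1.38 to 2.75 TPM in Ago2 KO/CLIPΔ. All 4 genotypes overlapped, and Ago2 KO against WT gave −0.41 ± 0.24 (limma adjusted p = 0.166). With the replicate block this was −0.60 (limma adjusted p = 0.0310), and Ago2 KO/CLIPΔ against CLIPΔ moved from −0.39 (limma adjusted p = 0.186) to −0.58 (limma adjusted p = 0.0362). Both moves rest on the same matching of library numbers across Ago2, which the labels do not give.

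Of the 5 tested members expressed from the paternal copy, 4 fell in both genotypes that lacked Ago2, and *Mest* did not pass. Of all tested genes, 42.4% fell in Ago2 KO against WT and 42.1% in Ago2 KO/CLIPΔ against CLIPΔ. The share of all tested genes that fell in both is not given here. After centring of the libraries on their medians, *Peg10* and *Impact* did not pass in Ago2 KO against WT, nor *Plagl1* and *Impact* in Ago2 KO/CLIPΔ against CLIPΔ. *Peg3* encodes a zinc finger protein (mm10 chr7:6703892-6730431, minus strand). It was at 22.4 and 23.1 TPM in WT, 16.5 and 21.1 TPM in CLIPΔ, 9.45 to 10.6 TPM in Ago2 KO and 9.05 to 11.04 TPM in Ago2 KO/CLIPΔ. No library without Ago2 reached the lowest library with it. Ago2 KO held 44.7% of the WT level (−1.09 ± 0.12, limma adjusted p = 5.51e-05), and Ago2 KO/CLIPΔ held 55.3% of the CLIPΔ level (−0.79 ± 0.12, limma adjusted p = 0.000336). Between the 2 genotypes without Ago2 the difference was 0.03 ± 0.09 (limma adjusted p = 0.958).

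*Plagl1*, the gene of a zinc finger transcription factor (mm10 chr10:13060504-13131694, plus strand), was at 64.6 and 64.9 TPM in WT and at 55.8 and 42.0 TPM in CLIPΔ. It was at 24.5, 23.2, 27.9 and 28.5 TPM in Ago2 KO and at 21.1, 23.8, 39.8 and 38.7 TPM in Ago2 KO/CLIPΔ. Every library without Ago2 was below every library with it, and replicates 3 and 4 of Ago2 KO/CLIPΔ came nearest to CLIPΔ. It fell in Ago2 KO to 40.2% of WT (−1.29 ± 0.23, limma adjusted p = 0.000841) and in Ago2 KO/CLIPΔ to 63.1% of CLIPΔ (−0.69 ± 0.23, limma adjusted p = 0.0254). Without replicate 1 or replicate 2 of Ago2 KO/CLIPΔ, or without replicate 1 of CLIPΔ, the latter no longer passed, with limma adjusted p of 0.0528 to 0.221. With replicates 3 and 4 alone it was −0.30 (limma adjusted p = 0.131).

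*Peg10*, derived from a retrotransposon and required for placenta formation (mm10 chr6:4747306-4760517, plus strand), was the most abundant member. It was at 520 and 667 TPM in WT and at 496 and 497 TPM in CLIPΔ. It was at 449, 459, 330 and 358 TPM in Ago2 KO and at 209, 222, 311 and 310 TPM in Ago2 KO/CLIPΔ. All libraries of each genotype lay below those of the genotype before it in this order, with no overlap.

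For *Peg10*, Ago2 KO against WT gave −0.58 ± 0.19 (limma adjusted p = 0.0236), and this passed no longer without WT replicate 2 (0.177), Ago2 KO replicate 3 (0.0574) or Ago2 KO replicate 4 (0.0541). Ago2 KO/CLIPΔ fell to 52.9% of CLIPΔ (−0.94 ± 0.19, limma adjusted p = 0.00195). Against Ago2 KO its change was −0.61 ± 0.16 (limma adjusted p = 0.117), of which the replicates 1 and 2 gave −1.07 (215 against 454 TPM) and the replicates 3 and 4 gave −0.15 (310 against 344 TPM).

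*Impact*, which encodes a regulator of the translation kinase GCN2, was at 110 and 95.9 TPM in WT and at 115 and 112 TPM in CLIPΔ. It was at 67.3 to 75.7 TPM in Ago2 KO, with no overlap with WT. In Ago2 KO/CLIPΔ it was at 60.1 and 59.4 TPM in replicates 1 and 2 and at 92.0 and 99.0 TPM in replicates 3 and 4, the last of which was above one of the WT libraries. Ago2 KO against WT gave −0.52 ± 0.19 (limma adjusted p = 0.0345) and Ago2 KO/CLIPΔ against CLIPΔ −0.58 ± 0.19 (limma adjusted p = 0.0224). The first of these did not pass without WT replicate 1, WT replicate 2 or Ago2 KO replicates 1, 2 or 3 in turn, with limma adjusted p of 0.0502 to 0.201. The second did not pass without replicate 1 or 2 of CLIPΔ or of Ago2 KO/CLIPΔ in turn, with limma adjusted p of 0.0508 to 0.108, and was −0.24 with replicates 3 and 4 alone (0.0958).

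**Figure D2:**
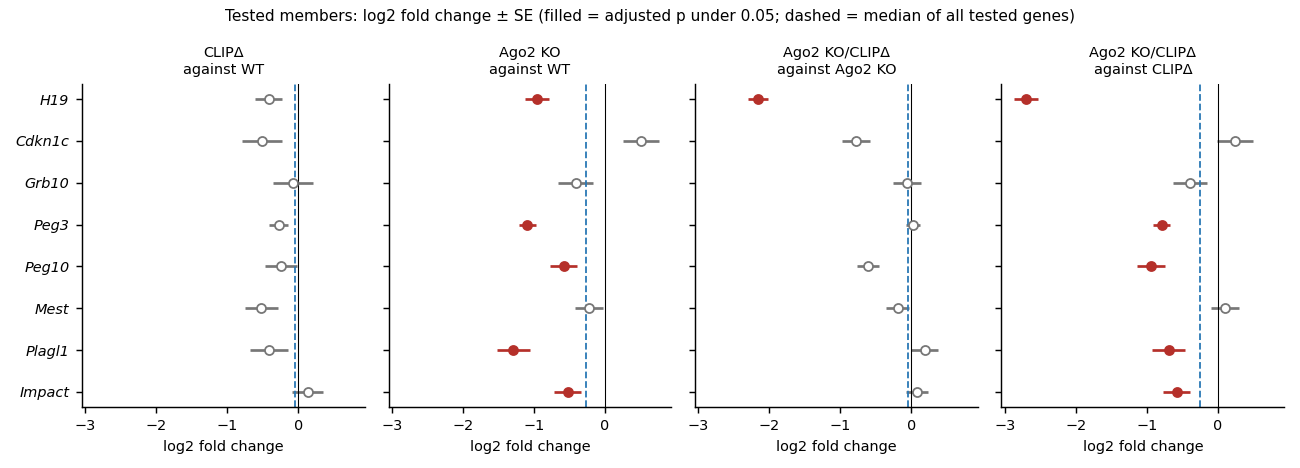
Log2 fold change (x axis, difference of log2(TPM + 1)) ± SE of the 8 tested members in 4 comparisons, filled red where the limma adjusted p was under 0.05, with a dashed line at the median of all 11287 tested genes. *H19* stands apart at −2.16 in Ago2 KO/CLIPΔ against Ago2 KO, and the dashed line lies at −0.26 in Ago2 KO against WT.

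Counted over the tested members, 5 of 8 fell and none rose in Ago2 KO against WT (*H19*, *Peg3*, *Peg10*, *Plagl1* and *Impact*). Over all tested genes 6364, 56.4%, passed, of which 4785 fell (42.4% of those tested), so a call in this comparison is common. Libraries of Ago2 KO and WT did not overlap in those 5 members and in 68.5% of all tested genes. The same 5 members fell in Ago2 KO/CLIPΔ against CLIPΔ, again with no overlap, where 54.9% of all genes passed, 42.1% fell and 65% did not overlap. In CLIPΔ against WT, 0 of 8 passed by limma, 1 had an unadjusted p under 0.05, and 2.27% of all genes passed. Libraries of CLIPΔ and WT did not overlap in 5 of the 8 members and in 30.9% of all tested genes. These comparisons take their WT or CLIPΔ libraries from the same few samples.

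The scaling of the libraries mattered for the comparisons across Ago2. The median log2 fold change of all tested genes was −0.26 in Ago2 KO against WT and −0.25 in Ago2 KO/CLIPΔ against CLIPΔ. With each library centred on its median, 3559 genes rose and 2371 fell in Ago2 KO against WT, in place of 1579 and 4785, and with quantile normalization 2731 rose and 2804 fell. Against CLIPΔ, Ago2 KO/CLIPΔ had 1446 higher and 4755 lower genes as deposited, 3401 and 2365 after centring and 2714 and 2787 after quantile normalization. Against Ago2 KO it had 31 higher and 68 lower, 43 and 45 after centring and 42 and 47 after quantile normalization. After centring, *H19* (−0.61, limma adjusted p = 0.0125), *Peg3* (−0.74, 0.000276) and *Plagl1* (−0.94, 0.00282) were still lower in Ago2 KO than in WT. *Peg10* (−0.23, limma adjusted p = 0.252) and *Impact* (−0.17, 0.383) no longer passed, and *Cdkn1c* did (0.86, 0.0147). Centring left, in Ago2 KO/CLIPΔ against CLIPΔ, *H19*, *Peg10* and *Peg3* past the threshold and took *Plagl1* (−0.36, limma adjusted p = 0.159) and *Impact* (−0.24, 0.216) out of it. Quantile normalization lost *Impact* in Ago2 KO against WT (limma adjusted p = 0.0640) and *Plagl1* in Ago2 KO/CLIPΔ against CLIPΔ (limma adjusted p = 0.0981), and *Cdkn1c* passed in Ago2 KO against WT (0.91, limma adjusted p = 0.0125).

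**Figure D3:**
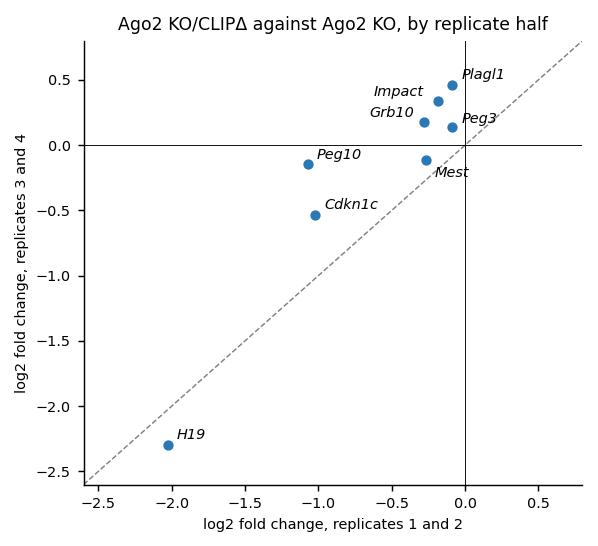
Log2 fold change of Ago2 KO/CLIPΔ against Ago2 KO for the 8 tested members, in replicates 1 and 2 (x axis) and in replicates 3 and 4 (y axis), with a dashed line of equality. *H19* lies at −2.02 and −2.30, *Peg10* at −1.07 and −0.15.

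*Mest*, a hydrolase-fold gene expressed in mesoderm, passed in none of the comparisons. It was at 118 and 161 TPM in WT, at 74.7 and 123 TPM in CLIPΔ, at 100 to 136 TPM in Ago2 KO and at 93.3 to 115 TPM in Ago2 KO/CLIPΔ. The genotypes of each comparison overlapped. Its log2 fold change was −0.22 ± 0.20 in Ago2 KO against WT (limma adjusted p = 0.362) and −0.19 ± 0.16 in Ago2 KO/CLIPΔ against Ago2 KO (limma adjusted p = 0.753).

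Both mature strands of miR-335, from the *Mest* intron, made up a larger share of the miRNAs in cells without Ago2. The values below are shares of the miRNA total of each library. Whether that total differed between genotypes was not measured. miR-335-3p was at 8854, 5656, 9008 and 6965 TPM over miRNAs in WT and at 7170, 4922, 8697 and 6715 TPM in CLIPΔ. It was at 20664, 25290, 20002 and 18946 TPM in Ago2 KO and at 19007, 17914, 14030 and 13803 TPM in Ago2 KO/CLIPΔ. The libraries without Ago2 were all above those with it. miR-335-3p rose 2.79-fold in Ago2 KO against WT (log2 fold change 1.49, limma adjusted p = 8.83e-07) and 2.35-fold in Ago2 KO/CLIPΔ against CLIPΔ (1.25, limma adjusted p = 6.43e-06).

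miR-335-5p was at 581, 486, 713 and 821 TPM in WT and at 350, 375, 583 and 463 TPM in CLIPΔ. It was at 1565, 1599, 1356 and 1451 TPM in Ago2 KO and at 1453, 1091, 1103 and 1086 TPM in Ago2 KO/CLIPΔ. Again no library without Ago2 overlapped one with it. miR-335-5p rose 2.29-fold in Ago2 KO against WT (1.22, limma adjusted p = 9.46e-06) and 2.67-fold in Ago2 KO/CLIPΔ against CLIPΔ (1.43, limma adjusted p = 1.21e-06). In CLIPΔ against WT it fell by 0.56 on the log2 scale (limma adjusted p = 0.0224), which passed no longer without WT C, WT D or CLIPΔ A in turn, with limma adjusted p of 0.0594 to 0.0711.

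These miRNA calls stand against a wide background. Of the 249 tested miRNAs, 206 (82.7%) passed in Ago2 KO against WT, with a median log2 fold change of 0.37, and 83.1% passed in Ago2 KO/CLIPΔ against CLIPΔ, with a median of 0.31. In CLIPΔ against WT 46.2% passed. In Ago2 KO/CLIPΔ against Ago2 KO 22.1% passed, and there the changes of miR-335-5p (−0.34, limma adjusted p = 0.219) and miR-335-3p (−0.40, limma adjusted p = 0.153) did so only with the replicate block (limma adjusted p = 0.00556 and 0.000961). The ratio of the 3p to the 5p strand averaged 11.99 in WT, 15.8 in CLIPΔ, 14.2 in Ago2 KO and 13.7 in Ago2 KO/CLIPΔ. miR-675 of *H19* and miR-483, which lies in an intron of *Igf2*, are not among the 507 miRNAs of the table and are not analysed here.

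**Figure D4:**
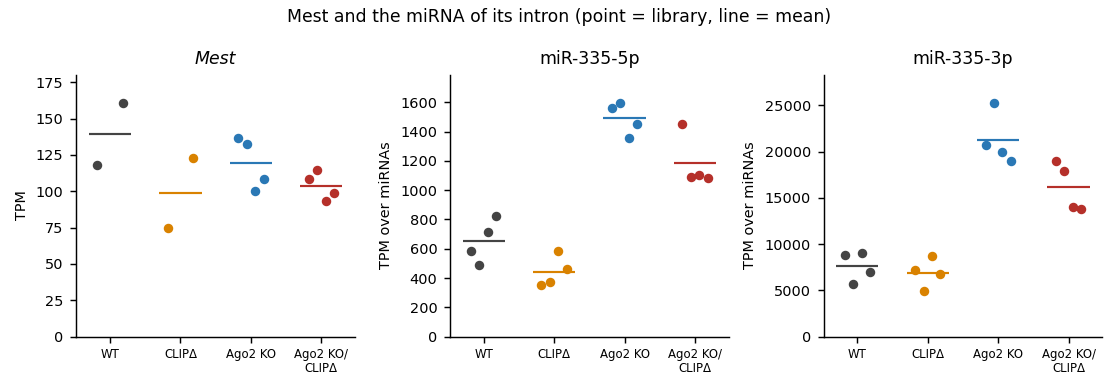
*Mest* (TPM, 12 RNA-seq libraries) beside miR-335-5p and miR-335-3p (TPM over miRNAs, 16 small-RNA libraries), y axes linear from 0, with a point for each library and a line at the genotype mean. *Mest* overlaps between the genotypes of each comparison, while miR-335-3p lies at 13803 TPM or above without Ago2 and at 9008 TPM or below with it.

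The members were also set against a list of 66 imprinted genes, of which 50 are in the table and 40 were tested, 23 of them expressed mainly from the maternal and 17 from the paternal copy. Of the 40, 5 passed in Ago2 KO/CLIPΔ against Ago2 KO, as did 0.877% of all tested genes, at a median log2 fold change of −0.02 beside −0.04 over all tested genes. Of the 23 maternally expressed genes 5 passed and 6 had an unadjusted p under 0.05, and of the 17 paternally expressed genes 0 passed by limma and 5 had an unadjusted p under 0.05. The difference between these classes was not tested. *H19* and *Phlda2* were lower, and *Meg3*, *Rian* and *Mirg* were higher. *Meg3*, *Rian* and *Mirg* lie in the same cluster, so the 5 called genes are not separate loci. No count here is compared with chance, and the allele that is expressed was not measured.

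*Meg3*, *Rian* and *Mirg* are noncoding RNAs of the *Dlk1*–*Dio3* cluster on chromosome 12. *Meg3* was at 147 and 132 TPM in WT, 82.3 and 68.7 TPM in CLIPΔ, 23.3 to 29.1 TPM in Ago2 KO and 39.3 to 73.1 TPM in Ago2 KO/CLIPΔ. It was higher in Ago2 KO/CLIPΔ than in Ago2 KO by 1.03 (limma adjusted p = 0.0158), the opposite direction to *H19*, and it did not pass without replicate 1, 2 or 3 of Ago2 KO or replicate 3 or 4 of Ago2 KO/CLIPΔ in turn (limma adjusted p of 0.0544 to 0.0623). The difference was 0.62 in replicates 1 and 2 (limma adjusted p = 0.320) and 1.44 in replicates 3 and 4 (limma adjusted p = 0.0662). *Rian* was at 0.67 and 1.33 and *Mirg* at 0.70 and 1.03 on these sides, with limma adjusted p of 0.0562 to 0.243.

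*Phlda2*, a maternally expressed gene that limits growth of the placenta, lies in the same cluster as *Cdkn1c*. It was at 9.07 and 12.7 TPM in WT, 6.31 and 8.54 TPM in CLIPΔ, 16.2 to 25.6 TPM in Ago2 KO and 11.02 to 14.2 TPM in Ago2 KO/CLIPΔ. The Ago2 KO libraries were above all others. It rose in Ago2 KO against WT (0.93, limma adjusted p = 0.0016) and was lower in Ago2 KO/CLIPΔ than in Ago2 KO (−0.77, limma adjusted p = 0.0428), a call that passed no longer with the replicate block (limma adjusted p = 0.0634), after median centring (0.0696), or without any 1 of the 8 libraries other than Ago2 KO replicate 2 (up to 0.170).

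**Figure D5:**
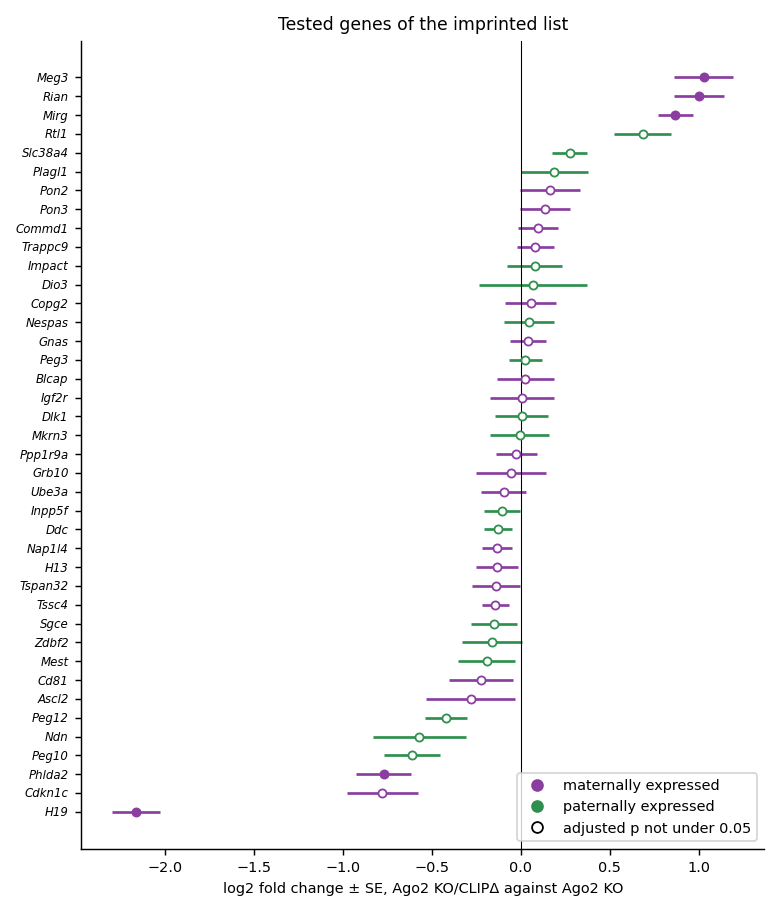
Log2 fold change ± SE of Ago2 KO/CLIPΔ against Ago2 KO (x axis) for the 40 tested genes of the imprinted list, purple for maternally and green for paternally expressed genes, filled where the limma adjusted p was under 0.05. *H19* is at −2.16, the other called genes lie between −0.77 and 1.03.

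In Ago2 KO against WT 22 of the 40 list genes (55%) passed, beside 56.4% of all tested genes, 4 higher and 18 lower, with a median of −0.39 beside −0.26 over all tested genes. After median centring 8 were higher and 13 lower. *Meg3* (−2.33), *Mirg* (−1.76) and *Rian* (−1.72) fell most. *Igf2r*, which encodes the receptor that removes Igf2 from the cell surface, was at 22.6 and 24.9 TPM in WT and 6.36 to 8.27 TPM in Ago2 KO (−1.56, limma adjusted p = 0.0002). *Zdbf2* (−1.14, limma adjusted p = 0.0008) and *Rtl1* (−1.12, 0.0007) fell too. *Ppp1r9a* was at 2.49 and 2.97 TPM in WT and at 0.939 to 1.01 TPM in Ago2 KO. It averaged under 1 TPM in both genotypes without Ago2 and passed the filter on low values only through WT and CLIPΔ. Its values are therefore given as a description. *Igf2r* overlaps the antisense transcript *Airn*, and whether the counting used strand is not given in the sources used here. In CLIPΔ against WT 2 of 40 passed, *Rtl1* (−1.02, limma adjusted p = 0.0385) and *Mirg* (−0.84, limma adjusted p = 0.0085), both lower. *Rtl1* did not pass after median centring (limma adjusted p = 0.0687) or without CLIPΔ replicate 1 or either WT library (up to 0.170), and *Mirg* did not pass without CLIPΔ replicate 1 (0.0718).

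Of the 40 list genes, 22 (55%) passed in Ago2 KO/CLIPΔ against CLIPΔ, beside 54.9% of all tested genes, 5 higher and 17 lower, at a median of −0.25, which was also the median of all tested genes. After median centring 10 were higher and 9 lower. The thyroid hormone deiodinase gene *Dio3* (−1.71, limma adjusted p = 0.0027) and *Igf2r* (−1.32, 0.0006) fell most after *H19*. *Dlk1*, a Notch-like growth regulator gene and 1 of the 5 higher, was at 0.439 and 0.709 TPM in CLIPΔ and at 1.40 to 2.35 TPM in Ago2 KO/CLIPΔ. It averaged under 1 TPM in WT and CLIPΔ and passed the filter on low values only through the genotypes without Ago2, so its values are given as a description. The other named genes, *Pon3*, *Ube3a*, *Pon2*, *Inpp5f* and *Slc38a4*, fell by 0.94, 0.85, 0.79, 0.72 and 0.69 on the log2 scale, and *Pon2* did not pass after centring (limma adjusted p = 0.0552).

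Regulators that keep imprints formed another list of 8 genes. In Ago2 KO against WT 6 of them fell, as did 42.4% of all tested genes. *Zfp445* (−1.38, limma adjusted p = 5.91e-05) and *Zfp57* (−0.50, 0.00723) encode zinc finger proteins that bind methylated control regions, and *Setdb1* (−0.53, 0.000509) encodes the histone methyltransferase they recruit. *Ctcf* (−0.88, limma adjusted p = 7.07e-05), whose protein insulates *Igf2* from its enhancers on the maternal copy, *Dnmt1* (−0.30, 0.0289), the maintenance DNA methyltransferase gene, and *Dppa3* (−2.94) fell as well. *Trim28* (0.34, limma adjusted p = 0.167) and *Uhrf1* (0.01) did not pass, and with the replicate block *Trim28* did (0.57, limma adjusted p = 0.00347). That block matches library numbers across Ago2, which the labels do not give. After median centring *Zfp57* (−0.15, limma adjusted p = 0.375) no longer passed, *Dnmt1* stood at 0.05, *Setdb1* just passed (−0.18, 0.0465) and *Trim28* was higher (0.69, 0.0320).

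In CLIPΔ against WT *Dppa3*, which protects methylation in the early embryo, was the 1 regulator of 8 that passed (2.89, limma adjusted p = 0.0018), from 28.3 and 18.8 TPM in WT to 269 and 117 TPM in CLIPΔ. *Zfp57* stood at −0.62 (limma adjusted p = 0.0598) and passed with the replicate block (0.0260). In Ago2 KO/CLIPΔ against Ago2 KO, none of the 8 passed by limma and 1 (*Zfp57*, −0.28) had an unadjusted p under 0.05. *Dppa3* was at 1.28 to 3.39 TPM in Ago2 KO and at 1.81 to 2.38 TPM in Ago2 KO/CLIPΔ, which overlapped.

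Over the 12 libraries the tested genes most like *H19* in log2(TPM + 1) were *Wipi2* (Pearson r = 0.977), *Ubqln2* (0.949) and *Ercc3* (0.939), and among the members *Peg10* was closest (0.848). For *Peg3* they were *Myo5c*, *Eif4ebp3* and *Zfp740* (r from 0.985 to 0.987), for *Peg10* *Naa25*, *Eps8* and *Nat8f4* (0.956 to 0.976), for *Plagl1* *Tsc1*, *Dst* and *Washc2* (0.989 to 0.990), and for *Impact* *Tmem106b*, *Birc3* and *Tigd2* (0.981 to 0.984). These values describe 12 libraries that share genotypes, so high correlations are common among the 11287 genes.

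No member carried a Trim71 binding site in the CLIP-seq peak list, which is common to both immunoprecipitates over the input and holds 498 peaks. Beside 11287 tested genes this is a short list, so most genes hold no peak. The share of all tested genes with a peak is not given here. Of the imprinted list, *Zdbf2* held 1 peak, in its coding sequence (chr1:63303114-63303119, plus strand, 736 reads). The letters CTACCTC, the match to the let-7 seed, were searched on the sense strand of the longest GENCODE transcript of each member. *Igf2* held 2 of them, *Peg3* 1, *Plagl1* 1 and the other 7 members, *H19* included, 0, beside 24.4% of tested genes with at least 1. Such a match is a string of letters and not a site shown to act.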

How the data were processed

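Per the labels and the study's methods, RNA-seq reads were mapped by the authors to mm10 with HISAT2 2.1.0, counted with HTSeq on the longest transcript of each gene and deposited as TPM. The authors gave miRNAs as TPM over miRNAs, and deposited read counts for each CLIP peak. The miRNA values were rescaled here so that every small-RNA library had the same total. The miRNA values printed and tested are the rescaled ones, which differ slightly from those deposited. The processing notes also name CASAVA 1.4, cutadapt, SAMtools and edgeR. TPM columns summed to 998656 to 999501, and 10692 to 11636 genes reached 1 TPM in a library. TPM is not a count, so the authors' edgeR test could not be repeated and read depth is unknown.

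Values were tested as log2(TPM + 1) with limma 3.58.1 (R 4.3.3, trend), over genes that averaged 1 TPM or more, or 100 or more for miRNAs. All 12 RNA-seq libraries (8 residual degrees of freedom) and, separately, all 16 small-RNA libraries were fitted together, and Benjamini–Hochberg adjustment ran over all features, with a threshold of 0.05. Scripts were tested on simulated data. The column code of the 3′UTR deletion was read as CLIPΔ because no other genotype remained. The replicate numbers of the Ago2 KO and Ago2 KO/CLIPΔ libraries were checked for pairing: the deviations of the 4 same-numbered pairs from the genotype means correlated at 0.320 to 0.433. Differently numbered libraries correlated at 0.335 to 0.467 within replicates 1 and 2 or within replicates 3 and 4, and at −0.444 to −0.275 across them, so the numbers mark these sets more than single pairs. Same-numbered WT and CLIPΔ libraries correlated at 0.715 and differently numbered ones at −0.715. With 2 libraries per genotype the second value is always the first with its sign turned, so these are a single value. *H19*, *Mest* and *Grb10* were lower in CLIPΔ in both same-numbered pairs, although their ranges overlapped. The block also matches numbers between WT or CLIPΔ and the genotypes without Ago2. The labels do not give this matching, and it was not checked. Alternatives were median centring, quantile normalization, another pseudocount (0.1 TPM), no filter, the compared libraries alone, a replicate block, replicates 1 and 2 or 3 and 4 alone, and each library left out.

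The named genes were the 10 members, *Ago2*, in each comparison up to 8 genes of the imprinted list with the largest change past the threshold, 8 imprint regulators, and the 3 genes most like each member that passed. The members and lists were chosen with earlier results of these data known. Gene positions are from GENCODE release M 21 (GRCm38, which is mm10), analysed with Python 3.11.15.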

Additional observations from a re-analysis of the deposited data

Results flagged for a closer look

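The interaction of the 3′UTR deletion with the loss of Ago2, tested by limma over all 11287 genes, passed the adjusted threshold of 0.05 for 73 genes (0.647%). In these genes the CLIPΔ against WT difference was unlike the Ago2 KO/CLIPΔ against Ago2 KO difference. An effect of the deletion cannot be told apart from differences between the clones of each genotype. Named genes among them are given here, and those of the *Dlk1*–*Dio3* cluster were named because they passed. *H19* had a log2 difference of −1.75 (limma adjusted p = 0.0053) and *Dppa3* of −2.94 (limma adjusted p = 0.0102). Some genes of the *Dlk1*–*Dio3* cluster went the other way, with *Meg3* at 1.90 (limma adjusted p = 0.0090), *Rian* at 1.73 (0.0065), *Mirg* at 1.71 (0.0008) and *Rtl1* at 1.70 (0.0123). *Dlk1* and *Dio3*, of the same cluster, did not pass. *Rtl1* passed no longer without WT replicate 1 (limma adjusted p = 0.0517). With replicates 1 and 2 alone 0 genes passed, so *H19*, *Dppa3* and all 4 called cluster genes were lost. With replicates 3 and 4 of the Ago2 KO genotypes alone, *H19* (limma adjusted p = 0.134) and *Rtl1* (0.217) did not pass.

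The miR-335-5p level of 1453 TPM over miRNAs in replicate 1 of Ago2 KO/CLIPΔ stood away from the other 3 libraries of that genotype, at 1086 to 1103 TPM, by Dixon's criterion. 26 groups were examined, and chance alone sets apart about 1 in 20.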

How the results depend on the processing

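Each result was recomputed under the alternatives. For *H19*, Ago2 KO against WT, Ago2 KO/CLIPΔ against CLIPΔ and CLIPΔ against WT kept their direction and their side of the threshold in every alternative. Ago2 KO/CLIPΔ against Ago2 KO and the interaction lost the threshold only with replicates 1 and 2 or replicates 3 and 4 alone. In the exact permutation test, with 1 library left out, the *H19* difference ran from −2.22 to −2.09, and the p of 0.0571 was the smallest that 4 against 3 libraries allow. With the replicate block, members called in Ago2 KO/CLIPΔ against Ago2 KO went from 1 to 2, all genes from 99 to 180, and miR-335 strands from 0 to 2.

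CLIPΔ against WT, with 256 genes called, gave 510 without the filter, 0 in the compared libraries alone (586 at an unadjusted p under 0.05), 92 with replicates 1 and 2 alone and 109 with replicates 3 and 4 of the Ago2 KO genotypes. Its imprinted genes went from 2 to 1 with a pseudocount of 0.1, to 0 in the compared libraries alone and to 1 with replicates 1 and 2. Ago2 KO/CLIPΔ against Ago2 KO gave 364 genes in the compared libraries alone, and with either pair of replicates 0 genes, 0 imprinted genes in place of 5 and 0 members in place of 1. Ago2 KO/CLIPΔ against CLIPΔ, with 5 members called, gave 3 with median centring, with the compared libraries alone and with replicates 3 and 4, where imprinted genes went from 22 to 14 and all genes from 6201 to 4033. The interaction, with 73 genes, gave 168 without the filter, 0 with replicates 1 and 2 and 12 with replicates 3 and 4, where imprinted genes went from 5 to 0 and to 3 and members from 1 to 0 in each.

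With 1 library left out, all genes called ranged from 4195 (without WT replicate 1) to 6479 in Ago2 KO against WT, from 21 (without Ago2 KO replicate 1) to 68 in Ago2 KO/CLIPΔ against Ago2 KO, from 3692 (without CLIPΔ replicate 1) to 6187 in Ago2 KO/CLIPΔ against CLIPΔ, from 105 (without CLIPΔ replicate 1) to 397 (without CLIPΔ replicate 2) in CLIPΔ against WT and from 51 to 144 (without CLIPΔ replicate 2) in the interaction. Imprinted genes ranged, in the same order, from 18 to 23, 3 to 4, 14 to 23, 0 to 3 and 4 to 5. Members ranged from 3 to 5 in Ago2 KO/CLIPΔ against CLIPΔ, and miR-335 strands from 0 to 1 in CLIPΔ against WT.

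The sign changed only in values that had not passed. *Mest* in Ago2 KO against WT was 0.13 with median centring. In Ago2 KO/CLIPΔ against Ago2 KO, *Peg3* (−0.087), *Plagl1* (−0.086) and *Impact* (−0.18) were negative in replicates 1 and 2, and *Grb10* was 0.17 in replicates 3 and 4. In the interaction, *Peg10* (0.10) and *Impact* (0.20) were positive in replicates 3 and 4, and *Grb10* was −0.0035 with a pseudocount of 0.1, −0.0049 with quantile normalization and −0.21 with replicates 1 and 2. With 1 library left out, *Grb10* ran from −0.40 to 0.25 in CLIPΔ against WT, from −0.16 to 0.059 in Ago2 KO/CLIPΔ against Ago2 KO and from −0.31 to 0.34 in the interaction. *Mest* ran from −0.44 to 0.0036 in Ago2 KO against WT, from −0.25 to 0.47 in Ago2 KO/CLIPΔ against CLIPΔ and from −0.028 to 0.68 in the interaction. *Peg3* ran from −0.0056 to 0.085 and *Impact* from −0.050 to 0.19 in Ago2 KO/CLIPΔ against Ago2 KO, and *Impact* from −0.19 to 0.056 in the interaction. The cause was not tested.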
